A study of Arabidopsis thaliana with 38 samples.

Results

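The unmutated control lines of an Arabidopsis thaliana histone study were set against each other: seedlings of the H3.3 genotype against seedlings of the H3.1 genotype. In the study each line is the control for a mutant in which serine 28 of the same histone is exchanged for alanine, and the difference between the controls themselves is described here. The members are the 2 H3.3 and the 2 H3.1 libraries, picked by their genotype labels, which makes 4 of the 8 RNA libraries and of 38 samples in all; the other 30 samples are chromatin immunoprecipitation libraries and were not analysed here. The remaining 4 RNA libraries, 2 of H3.3S28A and 2 of H3.1S28A, are the same H3 forms with the mutation; they share no library with the controls but come from the same tables, and were used for a comparison of their own, for the interaction test and for an alternative fit.

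Histone H3.1 is put into chromatin behind the replication fork by the chaperone CAF-1, whereas H3.3 is put in at any time of the cell cycle by HIRA and related chaperones and builds up over transcribed genes. In Arabidopsis both forms are encoded by several near-identical HTR genes. Lysine 27 of H3.1 is a preferred substrate of the plant methyltransferases ATXR5 and ATXR6, and lysine 27 trimethylation of H3 by Polycomb complexes keeps developmental genes such as FLC silent.

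For all 4 genotypes the labels give seedlings aged 2 weeks as stage and tissue, while the RNA extraction text speaks of closed buds. Growth is given as soil culture at long or short days without saying which was used for RNA. The labels do not give the promoter or H3 gene copy behind a genotype, the background it was made in, or whether it is 1 line or several, and no RNA of unmodified plants was analysed here. They also do not say whether the replicates are separate batches of plants, so p-values measure only the spread between these libraries. The H3.3 and H3.1 libraries were deposited in separate tables, so that line, table and, if the tables were made at different times, harvest and sequencing cannot be told apart in any result below.

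Total counts were 19630779 and 18914850 in the H3.3 libraries and 20624191 and 22285836 in the H3.1 libraries, and 21612 to 22050 of 27416 genes had a count. CPM denotes counts relative to the size of a library. With the limit for an undetected gene set at 3 counts, a gene at 0 could reach 0.135 to 0.159 CPM, counting error alone being covered. Leaf photosynthesis genes summed to 189418 and 181820 CPM in the H3.3 libraries and 160896 and 163965 CPM in the H3.1 libraries. Of 13 anther and pollen markers, 5 had no count in any library, and the list summed to 1.94 and 2.59 CPM in H3.3 and 0.727 and 0.987 CPM in H3.1. The petal and stamen identity gene AP3 had 0 and 0 counts in H3.3 and 0 and 1 in H3.1. In these control libraries photosynthesis genes were thus abundant, and the flower-bud markers AP3 and those of pollen were at or near 0. AP3 was not near 0 in the H3.3S28A libraries, at 10.4 and 10.2 CPM.

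Between the H3.3 and H3.1 lines, 8371 of 19235 genes tested differed at an adjusted p under 0.05 (43.5% of genes), 4187 of them higher (21.8%) and 4184 lower (21.8%) in H3.3. Most of these differences were small, with a median absolute log2 fold change of 0.60 among the called genes. Differences of at least 2-fold numbered 1943 (10.1% of genes), and these leaned upward, with 1275 higher and 668 lower in H3.3. The median absolute log2 difference between the group means over all genes was 0.316, against 0.127 between the H3.3 replicates and 0.138 between the H3.1 replicates. Before adjustment, 9812 genes had a p under 0.05. All levels below are CPM with TMM scaling (a scaling for library composition), fold changes are H3.3 over H3.1, and tests are edgeR's quasi-likelihood test adjusted over all genes.

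The histone genes themselves separated the lines most clearly at 2 loci, HTR13 and HTR5. HTR13 (AT5G10390, chromosome 5), an H3.1 gene, had 32.8 and 32.2 CPM in the H3.3 libraries, against 156 and 152 CPM in the H3.1 libraries. The 4 values fall into separate groups, 4.75-fold higher in H3.1 (log2 fold change −2.25, SE 0.09, adjusted p = 9.26e-10). HTR5 (AT4G40040, chromosome 4), an H3.3 gene, had 745 and 709.7 CPM in the H3.3 libraries, against 343 and 346 CPM in the H3.1 libraries (2.11-fold higher in H3.3, log2 fold change 1.08, SE 0.08, adjusted p = 4.66e-07). Each line thus had the higher level of a gene for its own H3 form. The same loci stood apart in the mutant lines. HTR13 was at 32.4 and 31.9 CPM in H3.3S28A, against 152 and 62.1 CPM in H3.1S28A, and HTR5 was at 1216 and 1162 CPM in H3.3S28A, against 353 and 335 CPM in H3.1S28A (log2 fold changes −1.73 and 1.79, adjusted p = 0.00216 and 3.35e-06).

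Of the other H3 genes, 3 were called, by small margins. HTR2, an H3.1 gene, was at 93.8 and 98.3 CPM in H3.3 and 131 and 120.3 CPM in H3.1 (log2 fold change −0.39, adjusted p = 0.00237), and HTR8, an H3.3 gene, at 107 and 114 CPM in H3.3 and 148 and 141 CPM in H3.1 (−0.39, 0.00219). HTR9, an H3.1 gene, was at 70.2 and 68.3 CPM in H3.3 and 54.2 and 55.1 CPM in H3.1 (0.34, 0.00508). HTR1, HTR3 and HTR4 were not called, with log2 fold changes of 0.09, 0.04 and −0.17, and neither were the low-count genes HTR6 (−1.56) and HTR11 (0.76) and the centromeric H3 gene HTR12 (0.22). HTR10, HTR14 and HTR15 had too few counts to be tested. Of the 5 H3.1 genes 1 was higher and 2 lower in H3.3, and of the 3 H3.3 genes 1 was higher and 1 lower, against 43.5% called among all genes. The calls of HTR8 and HTR9 were lost without H3.3 replicate 1 (adjusted p = 0.0557 and 0.0571), and the direction of HTR9, as of HTR1 and HTR3, turned once a trend of fold change with gene length, described below, was removed. With the trend removed, 4 of the 5 H3.1 genes were called lower and none higher, among them HTR1 and HTR3 (log2 fold change −0.39 each, adjusted p = 0.00929 and 0.0117), and 2 of the 3 H3.3 genes were called lower. H3 genes share long identical stretches and how reads matching more than 1 copy were assigned is not given in the sources used here; reads of an introduced H3 copy would be counted with the gene it matches, and its part in the HTR13 and HTR5 levels was not tested.

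**Figure D1:**
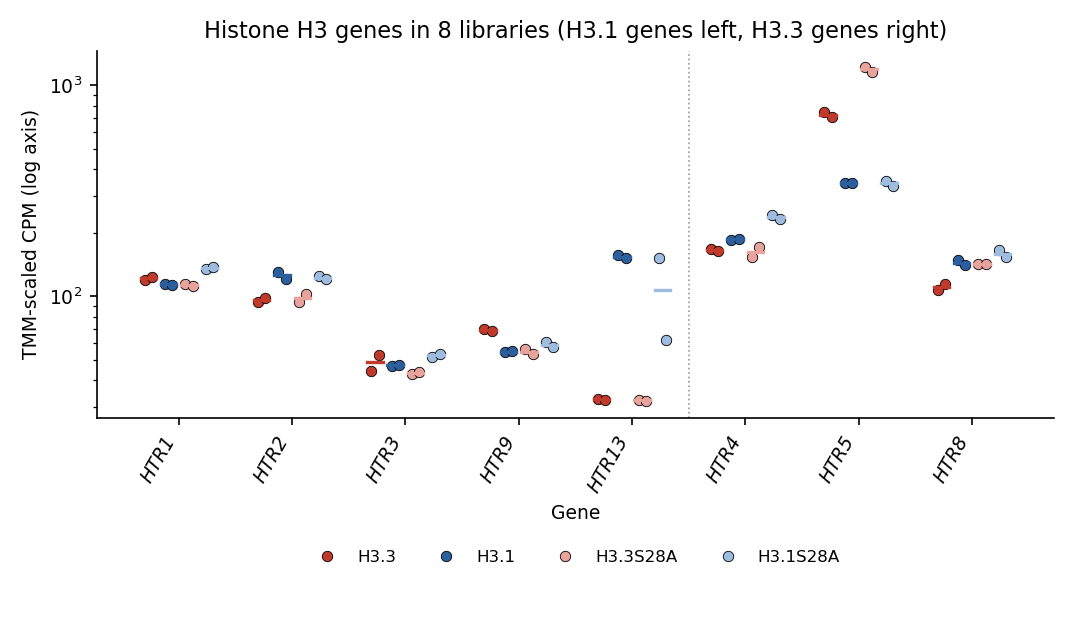
Levels of 8 histone H3 genes in TMM-scaled CPM on a log axis, with the H3.1 genes on the left and the H3.3 genes on the right of the dotted line; points are single libraries and bars are means of 2. HTR13 is low in both H3.3 libraries and in both H3.3S28A libraries, and HTR5 is high in them, while the other genes differ less.

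The 10 genes with a symbol that were most raised in H3.3 are of varied function. CYP81D11 (AT3G28740), a cytochrome P450 induced by foreign chemicals and jasmonate, had 7.07 and 8.08 CPM in H3.3, against 0.0468 and 0.183 CPM in H3.1 (log2 fold change 5.96, SE 0.41, adjusted p = 1.49e-07). The H3.1 values rest on 1 and 4 counts, and the log2 fold change was 5.32 without H3.1 replicate 1 and 7.16 without H3.1 replicate 2. BGLU11 (AT1G02850), a beta-glucosidase, had 19.4 and 20.0 CPM in H3.3, against 1.45 and 0.960 CPM in H3.1 (16.3-fold). TPX2 (AT1G65970), which in this annotation is a thioredoxin-dependent peroxidase, had 8.00 and 6.01 CPM in H3.3 and 0.422 and 0.229 CPM in H3.1 (21.2-fold). GRP9, a glycine-rich protein gene, averaged 11.7 ± 3.20 CPM in H3.3 and 0.944 ± 0.474 CPM in H3.1 (SD, n = 2 each). The log2 fold change of GRP9 was 3.62, and 4.26 without H3.1 replicate 2. The others of the 10 were the latex-protein-like MLP34, the phosphate-induced PHI-1, the calmodulin-like CML38, the transporter gene UMAMIT33, the iron-sulfur protein gene NEET and the zinc finger gene ZAT10, with log2 fold changes from 3.37 to 4.59. Single libraries moved some of these, to 3.95 for MLP34 without H3.3 replicate 1, to 3.33 for CML38 and 2.74 for ZAT10 without H3.3 replicate 2, and to 5.20 for PHI-1 without H3.1 replicate 1. That the lines do not overlap in any of them follows from how they were chosen.

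The 10 most lowered genes, chosen by the same rule, held the iron regulators BHLH38, BHLH39 and BHLH100 and the kinase-like gene ORG1, treated below. They also held LAC11, a laccase of lignin polymerization, and PRR1 (AT1G32100), here the pinoresinol reductase of lignan synthesis and not a clock gene. LAC11 had 0.671 and 0.638 CPM in H3.3, against 7.31 and 11.8 CPM in H3.1 (14.5-fold higher in H3.1), and PRR1 had 1.08 and 0.850 CPM in H3.3, against 9.09 and 11.1 CPM in H3.1 (10.4-fold). GL22, a germin-like gene, and DMP2, a membrane protein gene, had log2 fold changes of −4.16 and −3.90. TPS03, a terpene synthase, was at 0.413 and 0.691 CPM in H3.3 and 6.23 and 5.58 CPM in H3.1. AT14A varied within each line, at 2.12 and 11.8 CPM in H3.3 and 21.5 and 74.2 CPM in H3.1, and its call was lost with DESeq2 (adjusted p = 0.0866). Its log2 fold change of −2.79 lay between −4.50 without H3.3 replicate 2 and −1.63 without H3.1 replicate 2. Differences of this size also occurred at loci for which the annotation used here has no symbol, singled out after their values were seen: AT3G49160 had 15.2 and 16.1 CPM in H3.3 and 0.843 and 0.594 CPM in H3.1, and AT1G13609 had 2.84 and 6.38 CPM in H3.3 and 111 and 64.0 CPM in H3.1.

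Gene lists by pathway differed in how their members split. Rapid stress and touch genes stood at the upper end, with 11 of 16 tested members higher, none lower and a median log2 fold change of 1.56. At the lower end were evening clock, cold and nutrient genes. For comparison, 21.8% of all genes were called in each direction and their median log2 fold change was −0.00.

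**Figure D2:**
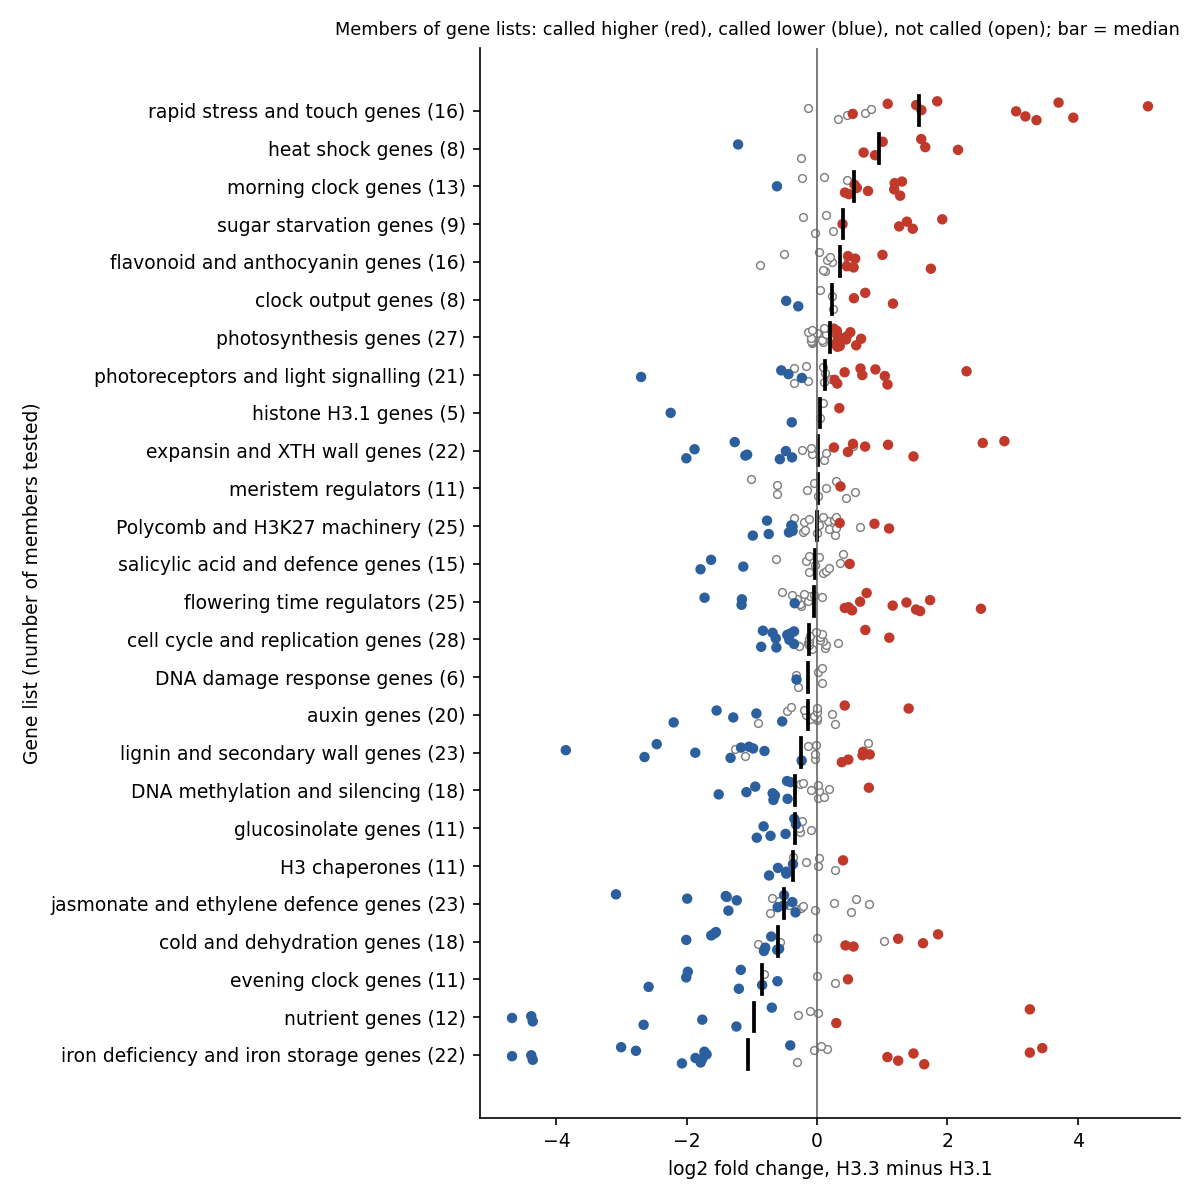
Log2 fold change of H3.3 minus H3.1 for the tested members of each gene list with at least 5 tested members, where filled points are members called higher (red) or lower (blue) at an adjusted p under 0.05, open points were not called and black bars are medians. Medians run from −1.05 for the iron genes, a list chosen after the values were seen, to 1.56 for rapid stress and touch genes.

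Iron and nitrate genes differed strongly. The list of nutrient genes had 7 of 12 tested members lower and 2 higher in H3.3. BHLH38, BHLH39 and BHLH100, transcription factors that plants switch on when iron is short, were low in H3.3, on 3 to 17 counts a library. BHLH38 (AT3G56970) had 0.877 and 0.159 CPM in H3.3, against 16.6 and 10.5 CPM in H3.1. BHLH39 had 0.413 and 0.638 CPM in H3.3, against 12.4 and 9.78 CPM in H3.1, and BHLH100 had 0.516 and 0.850 CPM in H3.3, against 16.1 and 12.2 CPM in H3.1. Log2 fold changes of the 3 genes were −4.68, −4.39 and −4.36 (adjusted p = 7e-07, 9.25e-08 and 5.19e-08). That of BHLH38 was −6.36 without H3.3 replicate 1 and −3.94 without H3.3 replicate 2. FER1 (AT5G01600), the iron store ferritin, moved the other way, with 215 and 189 CPM in H3.3, against 21.8 and 20.2 CPM in H3.1 (9.61-fold higher in H3.3, adjusted p = 2.02e-10).

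To see how far this went, 23 genes of iron deficiency and storage were listed after these values had been seen, and their counts are given as a description. Of 22 tested, 12 were lower and 6 higher in H3.3. The iron-deficiency regulator PYE was at 5.52 and 4.78 CPM in H3.3 and 23.0 and 14.6 CPM in H3.1, and the ubiquitin ligase BTS, which restrains the response, at 62.4 and 60.2 CPM in H3.3 and 222 and 194 CPM in H3.1. The iron transporter gene OPT3 was at 96.0 and 90.8 CPM in H3.3 and 303 and 302 CPM in H3.1, the reductase gene FRO3 at 14.3 and 13.4 CPM in H3.3 and 59.4 and 57.5 CPM in H3.1, and ORG1 at 43.2 and 42.5 CPM in H3.3 and 407 and 282 CPM in H3.1. Nicotianamine synthase genes, which make a metal chelator, were divided: NAS1 and NAS4 had log2 fold changes of −2.78 and −1.79, and NAS3 of 1.64. The ferritin genes FER3 and FER4 were at 1.08 and 1.24, the metal-nicotianamine transporter YSL1 at 1.48, and NEET had 134 and 136 CPM in H3.3 and 14.9 and 9.78 CPM in H3.1. The regulator ILR3 and the reductases FRO6 and FRO7 were not called.

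In the mutant lines most of these iron genes did not separate by H3 form: of the 18 called, 5 were called in the same direction, 2 in the opposite one and 11 not at all. BHLH38 was at 5.21 and 30.5 CPM in H3.3S28A and 31.1 and 4.91 CPM in H3.1S28A, so that the libraries of each mutant line lay further apart than the lines. BHLH39 and BHLH100 were split in the same way, and the interaction, which is the H3.3S28A minus H3.1S28A difference less the H3.3 minus H3.1 difference, was called for all 3 (adjusted p = 0.0187, 0.0164 and 0.00287). BTS did separate, at 44.8 and 57.7 CPM in H3.3S28A and 198 and 132 CPM in H3.1S28A (interaction adjusted p = 0.865). FER1 was at 101 and 68.7 CPM in H3.3S28A and 18.6 and 47.0 CPM in H3.1S28A, a smaller difference than in the controls (interaction adjusted p = 0.00254).

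**Figure D3:**
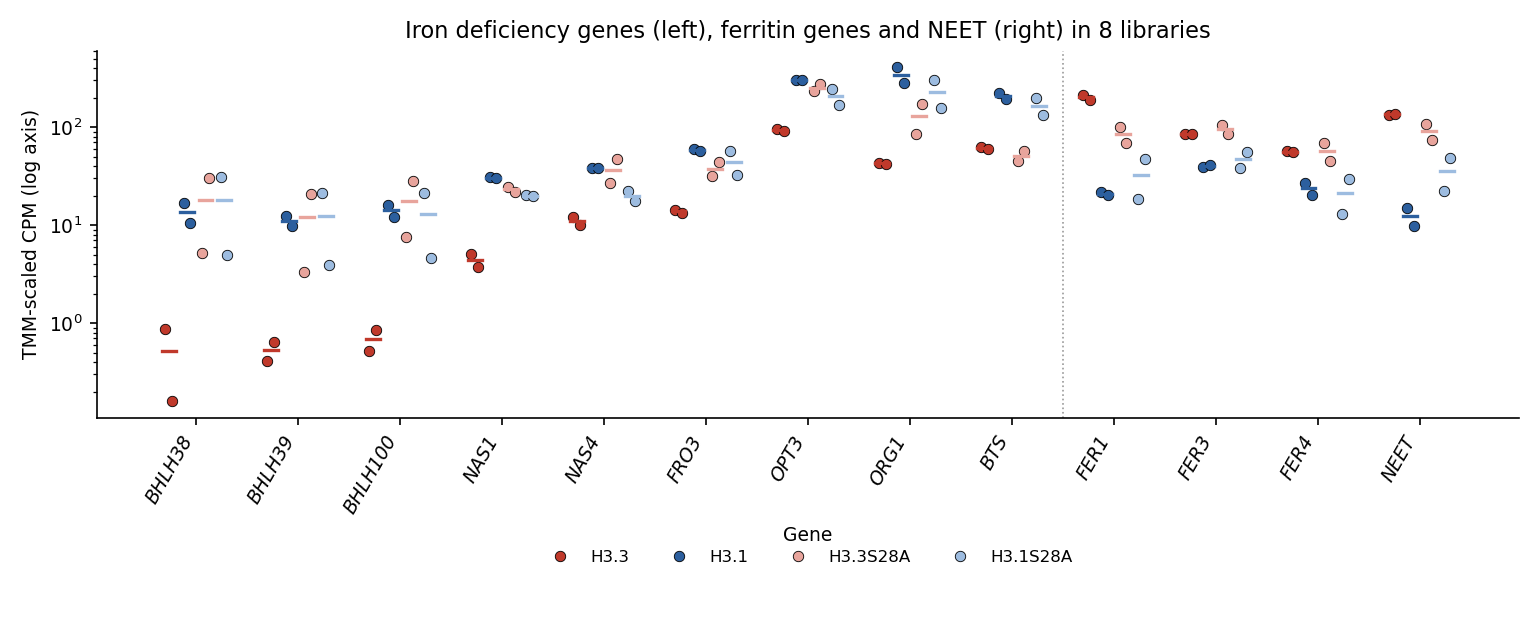
TMM-scaled CPM, on a log axis, of 9 iron deficiency genes (left of the dotted line) and of the ferritin genes with NEET (right) in 8 libraries; points are libraries and bars are means of 2. H3.3 lies below H3.1 for every gene on the left and above it for every gene on the right, while the libraries of each S28A line are spread for BHLH38, BHLH39 and BHLH100. The plotted genes were picked from a list chosen after the values were seen. Among the members not plotted are NAS3 and YSL1, higher in H3.3, and ILR3, FRO6 and FRO7, not called.

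The nitrate reductase genes were lower in the H3.3 form in the controls and in the mutants. NIA1 (AT1G77760) had 23.7 and 24.1 CPM in H3.3, against 139 and 164 CPM in H3.1 (6.33-fold higher in H3.1, adjusted p = 9.26e-10). NIA2 had 159 and 175 CPM in H3.3, against 358 and 430.4 CPM in H3.1. In the mutants NIA1 was at 47.6 and 40.2 CPM in H3.3S28A and 171 and 126 CPM in H3.1S28A, and NIA2 at 204 and 189 CPM in H3.3S28A and 497 and 482 CPM in H3.1S28A. The NIA1 difference was smaller in the mutants (interaction adjusted p = 0.00322), and for NIA2 the interaction was not called (0.637). Nitrite reductase, NIR1, was slightly higher in H3.3 (log2 fold change 0.29, adjusted p = 0.0118), a call lost with all 8 libraries in 1 fit and without either H3.3 replicate. The phosphate-starvation gene SPX1 was lower (−0.69).

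Clock genes split by their time of day. The plant clock is a loop in which CCA1, LHY and the RVE and LNK genes are expressed around dawn and PRR5, TOC1, GI, LUX and FKF1 towards evening. Of 13 morning genes 9 were higher and 1 lower in H3.3, with a median log2 fold change of 0.57. Of 11 evening genes 7 were lower and 1 higher, with a median of −0.84. LHY (AT1G01060) had 34.7 and 33.3 CPM in H3.3, against 16.8 and 11.3 CPM in H3.1, and LNK4 had 57.2 and 53.3 CPM in H3.3, against 24.0 and 24.4 CPM in H3.1. CCA1 differed less, at 54.9 and 52.4 CPM in H3.3 and 40.6 and 39.1 CPM in H3.1 (log2 fold change 0.43, adjusted p = 0.00168), and was not called when all 8 libraries were fitted together (adjusted p = 0.0975). The morning gene that went the other way was PRR7, at 151 and 157 CPM in H3.3 and 251 and 220.1 CPM in H3.1.

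Evening genes had the larger differences. PRR5 (AT5G24470) had 18.1 and 19.1 CPM in H3.3, against 79.4 and 70.5 CPM in H3.1 (4.02-fold higher in H3.1, adjusted p = 7.77e-09). FKF1, a blue-light receptor of the flowering pathway, had 2.06 and 5.21 CPM in H3.3, against 27.3 and 16.2 CPM in H3.1 (log2 fold change −2.58). GI was at 42.9 and 42.0 CPM in H3.3 and 98.1 and 96.9 CPM in H3.1, and TOC1 averaged 21.7 ± 2.17 CPM in H3.3 and 48.8 ± 5.99 CPM in H3.1 (SD, n = 2 each). In PRR5, GI and TOC1 the replicates of a line lay close together, while those of FKF1 were spread, and its log2 fold change was −3.40 without H3.3 replicate 2. The lines did not overlap in these 4 genes, which is likely from their choice as called members of smallest adjusted p. ELF4 and ZTL were not called, with log2 fold changes of 0.27 and 0.00.

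The direction turned in the mutants for most of these genes. Of the 10 morning genes called, 8 were called in the opposite direction between H3.3S28A and H3.1S28A and 1 in the same direction, and of the 8 evening genes called, 5 and 2. PRR5 was at 51.9 and 43.8 CPM in H3.3S28A and 31.5 and 39.6 CPM in H3.1S28A, and TOC1 at 63.8 and 54.1 CPM in H3.3S28A and 23.8 and 26.8 CPM in H3.1S28A. LHY was at 5.41 and 6.62 CPM in H3.3S28A and 13.0 and 8.00 CPM in H3.1S28A. GI kept its direction, at 39.7 and 29.1 CPM in H3.3S28A and 58.2 and 73.7 CPM in H3.1S28A (interaction adjusted p = 0.337). All 10 morning genes and 6 of the 8 evening genes were called by the interaction test, which includes the control difference they were picked by. The labels give no hour of harvest, and its part in the clock genes was not tested.

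**Figure D4:**
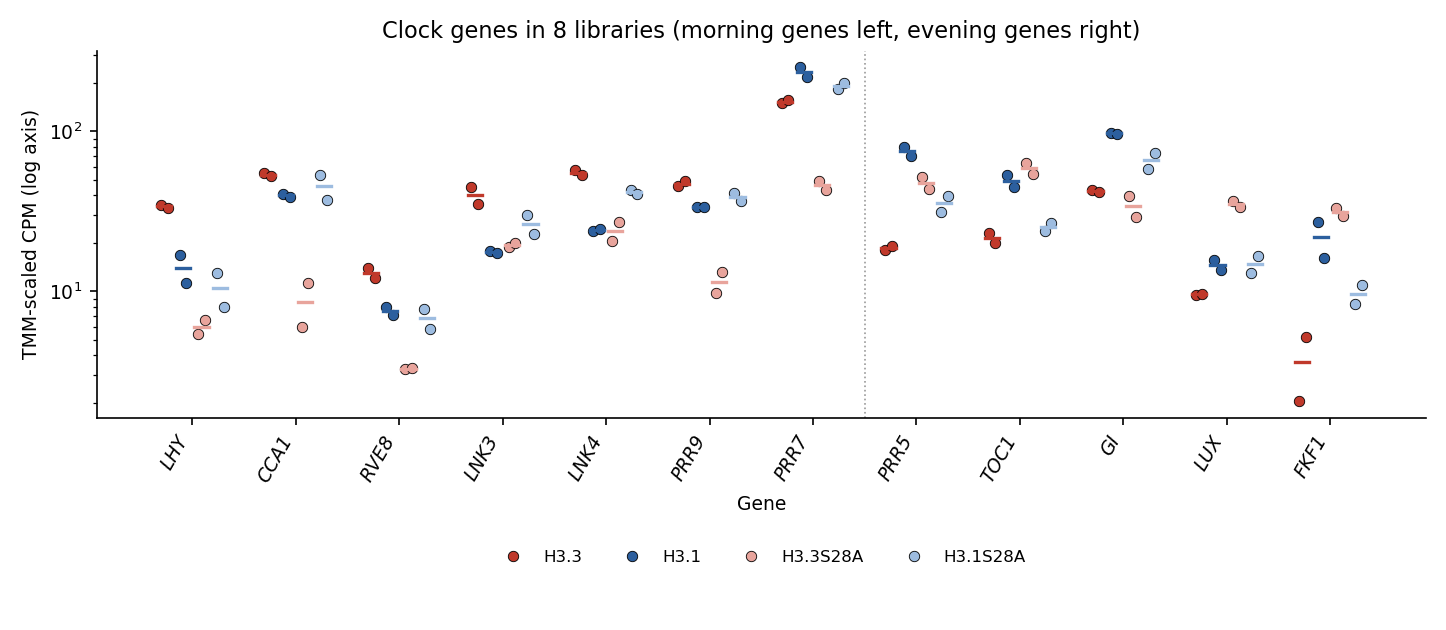
TMM-scaled CPM, on a log axis, of 7 morning and 5 evening clock genes in 8 libraries; points are libraries and bars are means of 2. H3.3 lies above H3.1 for 6 of the 7 morning genes and below it for the evening genes, and the S28A lines show the opposite order for these 6 morning genes and for PRR5, TOC1, LUX and FKF1, while PRR7 and GI are lower in the H3.3 form in both pairs.

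Of 8 clock output genes 3 were higher and 2 lower in H3.3. The B-box gene COL2 was at 38.1 and 32.9 CPM in H3.3 and 14.5 and 17.2 CPM in H3.1, and the RNA-binding protein gene GRP8 at 358 and 361 CPM in H3.3 and 256 and 231 CPM in H3.1. The third higher gene was CDF2 (log2 fold change 0.74), a repressor of CONSTANS, whose call was lost with DESeq2 (adjusted p = 0.0583). Its relative CDF3 was lower, at 60.1 and 60.4 CPM in H3.3 and 86.9 and 80.5 CPM in H3.1, and so was GRP7 (−0.29). The lower count was 1 with all 8 libraries in 1 fit and without either H3.3 replicate or H3.1 replicate 1. In the mutants COL2 went the other way, at 4.15 and 3.85 CPM in H3.3S28A and 27.1 and 20.4 CPM in H3.1S28A (interaction log2 value −3.73). Of 21 photoreceptor and light signalling genes, 9 were higher and 4 lower in H3.3, and 2 were lower with the length trend removed or without H3.3 replicate 2. ELIP2, a light-stress protein of the chloroplast, had 45.7 and 48.3 CPM in H3.3, against 6.98 and 12.2 CPM in H3.1 (4.90-fold higher in H3.3). HYH and HY5, transcription factors of light-grown plants, had log2 fold changes of 1.04 and 0.90. The lower members were the phototropin PHOT1 (−0.44, adjusted p = 0.00117), whose call was lost with the length trend removed (0.748), and the shade-response genes PIL1, ATHB2 and PIF4 (−2.70, −0.55 and −0.23). ELIP2 differed alike in the mutants, at 23.8 and 26.7 CPM in H3.3S28A and 4.39 and 5.03 CPM in H3.1S28A.

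Rapid stress and touch genes are switched on within minutes of handling, wounding or a pathogen. In H3.3 11 of 16 tested members were higher and none lower. ZAT10 had 7.64 and 15.9 CPM in H3.3, against 1.12 and 1.14 CPM in H3.1, and the deadenylase gene CAF1A had 11.3 and 32.2 CPM in H3.3, against 2.53 and 2.70 CPM in H3.1. The touch gene TCH2 had 34.3 and 51.4 CPM in H3.3 and 16.0 and 13.8 CPM in H3.1. XTH22, a xyloglucan-modifying gene that stands on the wall list and is also known as the touch gene TCH4, averaged 58.9 ± 15.6 CPM in H3.3 and 8.03 ± 0.696 CPM in H3.1 (SD, n = 2 each). The summed level of the rapid stress list was 129 and 228 CPM in H3.3 and 75.6 and 70.4 CPM in H3.1, so that H3.3 replicate 2 stood above replicate 1, and the log2 fold change of CAF1A was 3.05, and 2.11 without that library, and that of ZAT10 3.37 and 2.74. Both H3.3 libraries lay above both H3.1 libraries in each of the 4 genes, which is likely from their choice as called members of smallest adjusted p. XTH22 was called the opposite way in the mutants, at 19.5 and 19.0 CPM in H3.3S28A and 41.5 and 35.6 CPM in H3.1S28A (adjusted p = 0.000191). Of the 10 called members of the rapid stress list tested in the mutants, 6 were called in the same direction there and 1, TCH2, in the opposite one (log2 fold change −0.43, adjusted p = 0.0265). Among all higher genes tested in both comparisons, 61.7% were called in the same direction in the mutants.

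Heat shock genes were higher in 6 of 8 tested members and lower in 1, at low levels. HSP18.2 was at 9.96 and 10.1 CPM in H3.3 and 3.33 and 3.29 CPM in H3.1, and the heat shock factor gene HSFA7A at 4.08 and 4.25 CPM in H3.3 and 0.937 and 0.914 CPM in H3.1. Both were also higher in H3.3S28A than in H3.1S28A, with log2 fold changes of 2.98 and 1.98. The co-chaperone gene ROF2 was lower, at 2.48 and 1.70 CPM in H3.3 and 4.31 and 5.39 CPM in H3.1.

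Cold and dehydration genes were lower in 9 of 18 members and higher in 5, and higher in 3 with DESeq2 or without H3.1 replicate 2. RD29A, a marker of dehydration and cold, had 31.1 and 34.5 CPM in H3.3, against 121 and 73.4 CPM in H3.1, and the dehydrin gene COR47 had 80.9 and 89.0 CPM in H3.3, against 166 and 133 CPM in H3.1. The chloroplast protective genes COR15A and COR15B were higher in H3.3 (log2 fold changes 0.44 and 0.56). COR27 and COR28, cold genes that are also controlled by the clock, were at 0.774 and 0.691 CPM and at 0.258 and 0.904 CPM in H3.3, against 2.81 and 1.74 CPM and 2.81 and 1.87 CPM in H3.1. In the mutants the order was the reverse, with COR27 at 42.8 and 34.3 CPM in H3.3S28A and 1.03 and 0.824 CPM in H3.1S28A (interaction adjusted p = 3.78e-07).

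Jasmonate and ethylene defence genes were lower in 11 of 23 tested members and higher in none, but the count rested in part on 1 library. LOX3, a lipoxygenase of jasmonate synthesis, was at 5.62 and 5.47 CPM in H3.3 and 13.0 and 15.5 CPM in H3.1, with close replicates. LOX2 was at 184 and 244 CPM in H3.3 and 439.7 and 1264 CPM in H3.1, and VSP2, a storage protein induced by jasmonate, at 17.0 and 26.9 CPM in H3.3 and 19.9 and 94.8 CPM in H3.1, where the H3.1 replicates lay far apart, and the log2 fold change of LOX2 was −1.99, and −1.03 without H3.1 replicate 2. The list summed to 677 and 813 CPM in H3.3 and 1039 and 2275 CPM in H3.1. Without H3.1 replicate 2, 5 members were lower and 3 higher, and DESeq2 called 6 lower. Glucosinolate genes, of a defence pathway of the cabbage family, leaned on the same library: 6 of 11 were lower and none higher, with the smallest adjusted p for UGT74B1 (log2 fold change −0.71, adjusted p = 0.000354) and the largest fold for CYP79F1 (−0.93), whose call was lost with DESeq2 (0.118), while 10 were lower without H3.1 replicate 1 and 2 were higher without H3.1 replicate 2. The ethylene-responsive defensin gene PDF1.2 had 4 and 1 counts in H3.3 and 23 and 27 in H3.1.

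Salicylic acid and defence genes were called in 4 of 15 tested members (26.7%), below the 43.5% of all genes. ACD6 was at 19.6 and 13.1 CPM in H3.3 and 52.2 and 48.9 CPM in H3.1. PR5 was at 9.75 and 6.17 CPM in H3.3 and 29.6 and 25.5 CPM in H3.1. WRKY54 was at 4.02 and 5.05 CPM in H3.3 and 9.56 and 10.3 CPM in H3.1. PAD4, a lipase-like defence regulator, was higher (log2 fold change 0.50), a call lost with DESeq2 (adjusted p = 0.0504) and without H3.1 replicate 2 (0.109). PR1, the marker most used for this pathway, followed neither line in the controls: it had 9.75 and 0.904 CPM in H3.3 and 9.37 and 0.137 CPM in H3.1, so that replicate 1 was high and replicate 2 low in both. In the mutants it was at 347 and 105 CPM in H3.3S28A and 0.137 and 0.289 CPM in H3.1S28A, and PR5 was at 144 and 74.4 CPM in H3.3S28A and 7.19 and 11.1 CPM in H3.1S28A. Without H3.3 replicate 1 the list had 6 members lower, and without H3.1 replicate 1 it had 4 higher.

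Sugar starvation genes were higher in 5 of 9 tested members and lower in none. DRM1, a dormancy-associated gene, had 75.7 and 66.1 CPM in H3.3, against 26.5 and 24.8 CPM in H3.1, and SEN1 had 30.6 and 24.5 CPM in H3.3, against 6.23 and 8.32 CPM in H3.1. The asparagine synthetase gene ASN1 was at 50.7 and 51.1 CPM in H3.3 and 24.6 and 14.6 CPM in H3.1. DRM1 and SEN1 were also higher in H3.3S28A than in H3.1S28A, whereas ASN1 and the trehalose phosphate synthase gene TPS8 were lower there (log2 fold changes −1.99 and −1.12).

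Wall genes moved in both directions. Among 22 expansin, extensin and xyloglucan-modifying genes, 8 were higher and 8 lower in H3.3, and DESeq2 called 5 higher. EXPA8 had 27.4 and 28.4 CPM in H3.3, against 105 and 101 CPM in H3.1, and EXPA1 had 187 and 173 CPM in H3.3, against 382 and 391 CPM in H3.1. Expansins loosen the wall of growing cells. The extensin gene EXT3 was at 13.0 and 9.04 CPM in H3.3 and 34.9 and 53.7 CPM in H3.1. On a second list drawn up after the values were seen, 10 of 23 tested genes of lignin and the secondary wall were lower and 5 higher. The lowered members included laccases (LAC11, LAC17 and IRX12) and cellulose synthases of the secondary wall (IRX1, IRX3 and CESA4), of which IRX3 was not called without H3.1 replicate 2 (adjusted p = 0.0786). LAC17 was at 2.27 and 3.24 CPM in H3.3 and 12.5 and 17.9 CPM in H3.1. Enzymes of monolignol synthesis were divided. CAD4, CAD5, C4H, 4CL2 and CCR1 were higher, with log2 fold changes from 0.38 to 0.81, and CCR1 was not called without H3.3 replicate 1 (0.113). FAH1 and 4CL1 were lower (−0.81 and −0.24), and PAL1, PAL2, HCT and OMT1 were not called. In the mutants 10 of these 15 genes were called in the same direction and none in the opposite one. Among all called genes tested in both comparisons, 61.7% of the higher and 66.6% of the lower ones were called in the same direction. IRX1 was at 2.63 and 4.08 CPM in H3.3S28A and 10.1 and 9.69 CPM in H3.1S28A.

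Flowering time regulators were higher in 11 of 25 tested members and lower in 4. The repressors TEM1 and TEM2 were raised, TEM2 (AT1G68840) to 77.6 and 92.8 CPM in H3.3, against 15.4 and 14.4 CPM in H3.1 (5.71-fold higher in H3.3, adjusted p = 2.58e-09), and TEM1 by 2.99-fold (log2 fold change 1.58, SE 0.11). The repressor FLC was lower, at 1.75 and 1.22 CPM in H3.3 and 4.59 and 5.30 CPM in H3.1 (3.31-fold higher in H3.1, log2 fold change −1.73, adjusted p = 0.000255). FT, the mobile signal that TEM proteins and FLC repress, was at 1.29 and 1.12 CPM in H3.3 and 0.328 and 0.503 CPM in H3.1 (log2 fold change 1.52, adjusted p = 0.0221), and its call was lost with DESeq2 (0.136) and without H3.3 replicate 1 or either H3.1 replicate (0.0712 to 0.187). SOC1, a floral integrator, was slightly lower, at 35.5 and 39.6 CPM in H3.3 and 51.6 and 43.7 CPM in H3.1, and lost its call with all 8 libraries in 1 fit (0.157), with the length trend removed (0.167) and without H3.3 replicate 1 or H3.1 replicate 1 (0.141 and 0.102). The age-pathway genes SPL3 and SPL5 had log2 fold changes of 1.16 and 1.37, and the MADS-box gene AGL24 of −1.15. DESeq2 called 6 members of the list higher, as did the test without H3.1 replicate 2. In the mutants TEM2 was lower in the H3.3 form, at 8.96 and 10.4 CPM in H3.3S28A and 17.0 and 20.7 CPM in H3.1S28A, and FLC did not differ beyond its error (log2 fold change −0.20, adjusted p = 0.497).

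Of 12 floral organ identity genes, 9 were too low to test. SEP4 made up most of the list's counts, with 195 and 168 counts in H3.3 and 175 and 175 in H3.1, and was not called (log2 fold change 0.23). AG had 1 and 2 counts in H3.3 and 20 and 26 counts in H3.1, and SEP3 had 6 and 2 counts in H3.3 and 20 and 20 in H3.1. Both were called lower, and the call of SEP3 was lost with DESeq2 (adjusted p = 0.0897), with all 8 libraries in 1 fit (0.418) and without H3.3 replicate 2 or either H3.1 replicate (0.0724 to 0.103). In the mutants SEP3 was far above these levels, at 128 and 121 CPM in H3.3S28A and 41.9 and 4.99 CPM in H3.1S28A, and AG was at 7.59 and 7.54 CPM in H3.3S28A and 5.28 and 1.98 CPM in H3.1S28A. PI was too low to test in the controls. Of 11 meristem regulators only AS1, a leaf-fate factor, was called (log2 fold change 0.35), and its call was lost without H3.3 replicate 2 or H3.1 replicate 2 (0.0504 and 0.0528). Auxin genes were called in 35% of members, below the share of all genes: 5 of 20 were lower and 2, IAA4 and SAUR19, higher. Neither of the higher calls held with the length trend removed or without H3.3 replicate 1, and 1 did with DESeq2, with no count filter and without either H3.1 replicate. Those lower were IAA1, IAA6, IAA19 and IAA29, repressors induced by auxin, with the auxin synthesis gene TAA1. IAA29 was at 3.35 and 2.55 CPM in H3.3 and 9.84 and 7.40 CPM in H3.1. The pectin methylesterase gene VGD1, a pollen marker, was called higher on 15 and 10 counts in H3.3 and 0 and 4 in H3.1, and lost its call with DESeq2 (0.0992), with all 8 libraries in 1 fit (0.0826) and without H3.1 replicate 1 (0.196). The root marker BGLU23, a beta-glucosidase of endoplasmic reticulum bodies, was higher (1.96-fold), and the other 3 tested root markers were not called, though 1 more was with no count filter, with all 8 libraries in 1 fit, with the length trend removed and without H3.3 replicate 2 or either H3.1 replicate. The marker AGL15 of seeds was not called, and 3 of 10 seed genes were at 0 in all 4 libraries. In bulk tissue a smaller share of a cell type and less RNA per cell cannot be told apart.

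Photosynthesis genes were called higher in 13 of 27 members and lower in none, by small margins, with a median log2 fold change of 0.20. LHCB1.4, a chlorophyll-binding antenna protein, had 7094 and 6283 CPM in H3.3, against 4176 and 4200.5 CPM in H3.1, and LHCB5 had 7064 and 6749 CPM in H3.3, against 4816 and 4883 CPM in H3.1. With the length trend removed, none of the 27 was called higher; without H3.3 replicate 1 and without H3.3 replicate 2 the count was 3 and 6, and without H3.1 replicate 1 5 members were lower. LHCB1.1 lost its call also with the replicate number as a block (adjusted p = 0.0612). Flavonoid genes were higher in 6 of 16 tested members and lower in none (37.5% called, against 43.5% of all genes in either direction and 21.8% higher). The smallest adjusted p was that of the flavonol synthase FLS1, at 48.2 and 56.6 CPM in H3.3 and 34.0 and 35.9 CPM in H3.1. MYB12 had the largest log2 fold change, 1.75. DFR, of anthocyanin synthesis, had 65.5 and 62.4 CPM in H3.3, against a mean of 31.9 ± 20.2 CPM in H3.1 (SD, n = 2). Its log2 fold change of 1.00 was 1.87 without H3.1 replicate 2, and its call was lost with DESeq2 (0.263), which called 2 of the list, and the call of MYB12, a flavonol regulator, was lost with DESeq2 (0.104) and without H3.3 replicate 2 or either H3.1 replicate (0.0752 to 0.123). Without H3.1 replicate 1 and without H3.1 replicate 2 the count of higher flavonoid genes was 3 and 10. The chalcone synthase gene CHS was not called (log2 fold change 0.20), but was without H3.1 replicate 2 (0.62).

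Chromatin genes were called lower more often than higher in H3.3. The calls on the DNA methylation, chaperone and Polycomb lists depended on the length trend. The share called was 55.6% for DNA methylation genes, 54.5% for chaperone genes and 40% for the list of Polycomb and H3K27 genes. It was 16.7% for DNA damage and 46.4% for cell cycle genes, against 43.5% of all genes, with 21.8% in each direction. DNA methylation and silencing genes were lower in 9 of 18 members and higher in 1. ROS1, a DNA demethylase, averaged 24.3 ± 0.956 CPM in H3.3 and 69.1 ± 6.71 CPM in H3.1 (SD, n = 2 each; 2.85-fold higher in H3.1, adjusted p = 1.08e-07), and its relatives DME and DML2 had log2 fold changes of −0.95 and −1.08, while DML3 had 0.79. The maintenance methyltransferase gene MET1 was at 54.8 and 65.5 CPM in H3.3 and 75.4 and 84.2 CPM in H3.1. With the length trend removed, 4 members were lower and 4 higher. ROS1, DME and DML2 differed in the same direction in the mutants and DML3 in the opposite one, with ROS1 at 10.9 and 9.01 CPM in H3.3S28A and 55.6 and 63.9 CPM in H3.1S28A.

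Of 11 H3 chaperone genes, 5 were lower and 1 higher. Those lower were ATRX, UBN1, UBN2 and CABIN1 of the H3.3 pathways and FAS1 of CAF-1, with log2 fold changes from −0.37 to −0.74, and none was called with the length trend removed, while 3 were with DESeq2 or without H3.3 replicate 1. The higher gene was ASF1B (0.40, adjusted p = 0.0308), and its call was lost with DESeq2, with library totals, with all 8 libraries in 1 fit and without H3.3 replicate 2 or H3.1 replicate 2. HIRA was at 18.0 and 16.4 CPM in H3.3 and 17.7 and 16.4 CPM in H3.1 and was not called. Of 25 Polycomb and H3K27 genes, 7 were lower and 3 higher, and with the length trend removed 2 were lower and 7 higher. The lower members of smallest adjusted p were SDG8, EMF1 and PKL, with log2 fold changes of −0.74, −0.77 and −0.43. The list is wider than Polycomb, since SDG8 is an H3K36 methyltransferase gene and ULT1 a trithorax-type gene. The direction of PKL turned with the trend removed. The methyltransferase gene SWN and the demethylase gene REF6 had log2 fold changes of −0.40 and −0.38 (−0.12 and −0.09 with the trend removed, adjusted p = 0.434 and 0.569), and CLF and LHP1 were not called. Those higher were ULT1, VEL1 and the clock-linked demethylase gene JMJ30, which was at 5.37 and 5.10 CPM in H3.3 and 2.72 and 2.15 CPM in H3.1. Of 6 tested DNA damage genes, 1, ATM, was called lower (log2 fold change −0.33), and its direction turned with the trend removed (0.38). Its call was lost with DESeq2 (adjusted p = 0.0526) and without H3.3 replicate 1 or H3.1 replicate 2 (0.13 and 0.0709). Cell cycle and replication genes were lower in 11 of 28 and higher in 2, the D-type cyclins CYCD3;2 and CYCD3;3. The cytokinesis kinesin HINKEL was at 27.7 and 35.2 CPM in H3.3 and 59.2 and 54.7 CPM in H3.1, and the ribonucleotide reductase gene TSO2 at 77.0 and 75.7 CPM in H3.3 and 119 and 118 CPM in H3.1. Without H3.3 replicate 1, 6 of the list were lower.

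The length trend ran through all genes. Spearman's rho of the log2 fold change with the span of the gene was −0.330 across genes, and it lay between −0.301 and −0.337 for every single H3.3 library against every single H3.1 library, against −0.0426 between the H3.3 replicates and −0.141 between the H3.1 replicates. In the quartile of genes with the shortest span (median 1334 bases), 38.0% were higher and 10.9% lower in H3.3. In the quartile with the longest span (median 4310 bases), 9.40% were higher and 39.6% lower. On the 5 chromosomes the share higher was 21.0% to 23.5% and the share lower 20.5% to 22.9%. With the trend removed 6971 genes were called, of which 5990 were called before. RNA quality values are not in the sources used here, and their part in the trend was not tested.

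The H3.3S28A and H3.1S28A libraries share no sample with the controls but the same tables and H3 forms. Between them 12017 of 19433 genes differed (61.8%). Of 4081 genes higher in H3.3 and tested in both comparisons, 2517 were also higher in H3.3S28A than in H3.1S28A (61.7%, against 30.7% among all genes), 361 were called the opposite way and 1203 were not called. Of 4160 lower genes, 2771 were also lower (66.6%, against 31.2%) and 390 went the opposite way. The length trend was not removed from either comparison here, and its part in these shares was not tested. Among changes of at least 2-fold, 830 of 1169 higher genes recurred (71.0%), but only 266 of 644 lower genes (41.3%), and 107 of these lower genes were called the opposite way. Of the 10 most raised genes, 9 were called higher in the mutants too and PHI-1 was not (log2 fold changes 4.34 and −0.34), and the interaction was called for 4, PHI-1, CML38, NEET and ZAT10. Of the 10 most lowered, 4 were called lower, 1 higher and 5 not called. CYP81D11 was at 7.34 and 8.24 CPM in H3.3S28A and 0.274 and 0.0412 CPM in H3.1S28A, and TPX2 at 11.1 and 9.31 CPM in H3.3S28A and 0.411 and 0.495 CPM in H3.1S28A (interaction adjusted p = 0.918 and 0.977).

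The size of the difference changed between controls and mutants for many genes. The interaction was called for 7829 of 20052 genes (39%), among them 3844 of 8241 genes (46.6%) that differed between the controls. The difference between the controls enters the interaction, so picking genes by it can raise the second share. The length trend was not removed for the interaction test either, and its part there was not tested. TPS03 was reversed, at 21.3 and 18.1 CPM in H3.3S28A and 4.80 and 1.65 CPM in H3.1S28A. H3.3S28A replicate 2 had 0.858% of its counts on chloroplast genes, against 0.0520% to 0.143% in the other libraries, and without it 54.0% of the higher genes and 62.8% of the lower ones recurred.

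**Figure D5:**
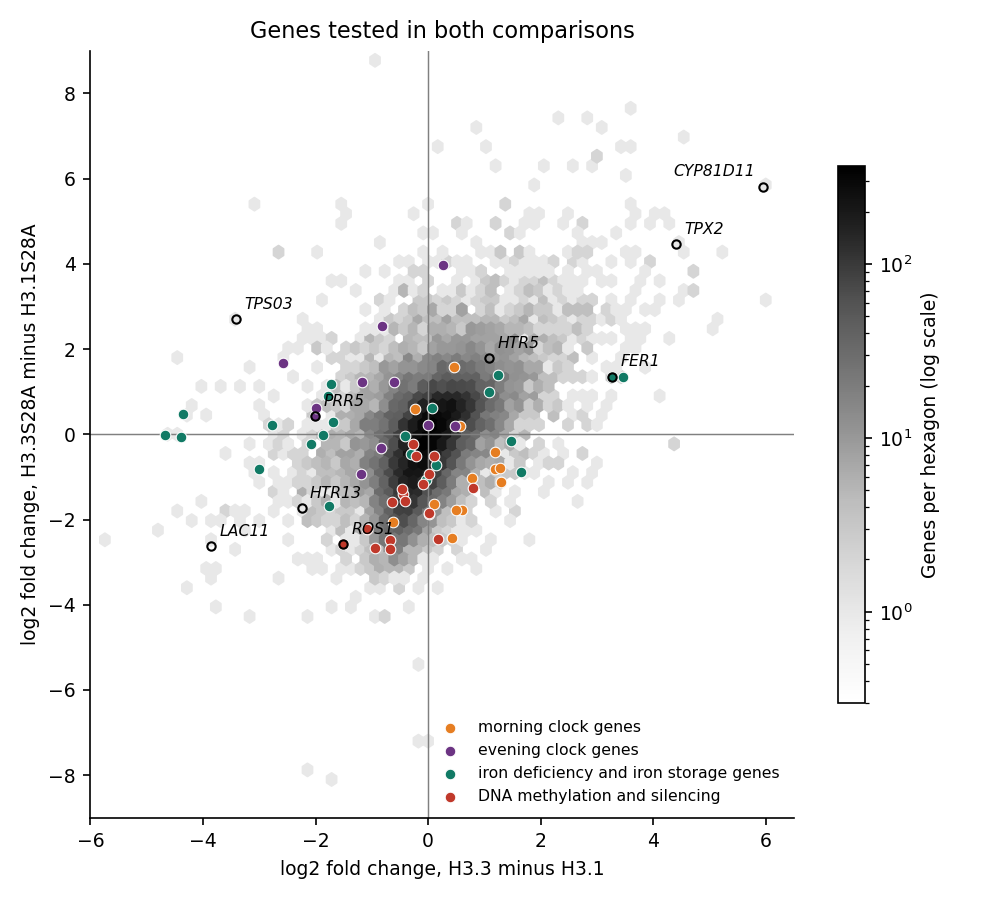
Log2 fold change of H3.3 minus H3.1 (x axis) against that of H3.3S28A minus H3.1S28A (y axis) for genes tested in both comparisons, as hexagons shaded by the number of genes, with members of 4 gene lists as coloured points and some genes named. DNA methylation genes lie at or below 0 on the y axis, most morning clock genes lie below the diagonal and most evening genes above it, and 6 genes lie outside the axes.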

How the data were processed

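Raw counts per gene were deposited by the authors in 2 tables, H3.3 with H3.3S28A and H3.1 with H3.1S28A, and were joined by gene identifier. The submitters' processing notes name HISAT2, Subread, DESeq2 and build TAIR10. Versions, annotation, strand setting and the handling of reads with several matches were not found in the sources used here, so near-identical, overlapping and antisense genes are uncertain. The names of the H3.1 columns are ambiguous and were read as the genotype followed by the replicate number. Unlike these, the names for H3.1S28A include a tag reading "new", whose meaning was not found. H3.1 and H3.1S28A may therefore not come from the same run. Symbols and gene spans came from a RefSeq table of TAIR10.1 (26719 of 27416 genes, 97.5%), so no coordinates are printed.

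H3.3 was tested against H3.1 on the 4 libraries with edgeR 4.0.16 in R 4.3.3 (TMM, filterByExpr, quasi-likelihood test, Benjamini-Hochberg adjustment, threshold 0.05). The same test compared H3.3S28A with H3.1S28A, and the interaction used all 8 libraries. Standard errors were computed from the fold change and its F statistic. Per-gene CPM carry TMM scaling, while list sums are per library total. Scripts were tested on simulated counts. Within a line, replicates differed beyond sampling noise, with chi-square values per degree of freedom of 4.11 for H3.3 and 8.27 for H3.1.

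The members and the 30 gene lists (472 genes) were chosen with earlier results of these data known, and the iron and lignin lists were added after the values were seen. Named were all H3 genes; the 10 genes with a symbol of largest fold change in each direction (called, at least 5 CPM in the higher line, lines not overlapping); up to 4 called members per list by smallest adjusted p; and preset genes of flowering, Polycomb, clock, defence and pigment. Of 134 genes so named, 129 were tested and 119 called; further members are given to describe their list. Alternatives were DESeq2 1.42.0, other scalings and filters, all 8 libraries in 1 fit, no organelle genes, the replicate number as a block, an offset removing the length trend, and leaving out each library.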

Additional observations from a re-analysis of the deposited data

Results flagged for a closer look

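The difference between the H3.3 and H3.1 forms was not the same in the mutants as in the controls for 7829 of 20052 genes by the interaction test, which takes the H3.3S28A minus H3.1S28A log2 difference less the H3.3 minus H3.1 log2 difference. Of the genes named by rule, 87 were called by this test, and 31 of these were called in opposite directions in the 2 comparisons. Most genes named by rule were chosen by their difference between the controls, which enters this test. The 87 therefore cannot be set against the 39% called among all genes. Interaction values of the 31 genes on the log2 scale are given here.

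Genes that were lower in H3.3 than in H3.1 but higher in H3.3S28A than in H3.1S28A had positive values. These were PDF1.2 8.33, TPS03 6.09, PR5 5.32, AG 4.74, FKF1 4.24, EXT3 4.03, PRR5 2.42, TOC1 2.38, WRKY54 2.21, AGL24 1.88, COR413-PM1 1.79, AOC2 1.56, EXPA1 1.39, SOC1 1.14.

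Genes that were higher in H3.3 than in H3.1 but lower in H3.3S28A than in H3.1S28A had negative values. These were XTH22 −3.88, COL2 −3.73, TEM2 −3.51, ASN1 −3.37, CCA1 −2.88, LNK2 −2.40, TPS8 −2.39, CDF2 −2.23, LHY −2.07, LNK4 −2.02, TCH2 −1.96, CRY1 −1.64, LNK3 −1.62, DFR −1.55, LHCB2.3 −1.27, LHCB1.4 −0.92, LHCB5 −0.85. The 2 sets cover clock, light, defence, wall and flowering genes. A shift common to both lines of a table cancels in this test, but a shift of a single line does not. Whether both lines of a table were harvested and sequenced together was not found in the sources used here, so the interaction may include such a shift. H3.3S28A replicate 2, the library with the high chloroplast share, enters each of these values, and without it 6800 genes were called by the interaction test.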

How the results depend on the processing

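The count of called genes stayed within 1.5 times of 8371 under every alternative run, between 6002 with DESeq2 and 8564 with a replicate block, and between 6622 and 8306 when 1 library was left out. Higher genes made up 46.8% to 54.0% of calls. For the mutants the count was 9858 to 12059 (12017 as reported), and for the interaction 6800 to 7829. Removal of the length trend was not among the alternatives run for the mutants or the interaction. Replicate numbers did not pair the libraries (correlation of deviations 0.013 in the controls and −0.035 in the mutants), and the replicate block called 8564 genes, 4264 higher and 4300 lower.

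Of the 119 named genes called, 89 kept their call and direction in every alternative. Among all 129 tested, removal of the length trend weakened 14, strengthened 2 and reversed 6, with log2 fold changes of −0.39 for HTR1, −0.39 for HTR3, −0.11 for HTR9, 0.38 for ATM, 0.10 for CABIN1 and 0.037 for PKL; the cause of the trend was not tested. PR1 ranged from −2.38 to 5.22 when 1 library was left out, and was −0.80 without H3.1 replicate 2. HTR4 was called lower with library totals (−0.20) and with the trend removed (−0.35). Depth limits AG, SEP3, FT, VGD1, MYB12 and PDF1.2, which rest on few counts. With 2 libraries a line, edgeR borrows the spread across genes.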
